A study of Mus musculus with 4 samples.

Results

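The 10 genes described here encode receptors that raise or lower the response of a T cell to its antigen: Tnfrsf4, Tnfrsf18, Tnfrsf9, Icos, Cd28, Ctla4, Pdcd1, Tigit, Lag3 and Cd160. They were taken by symbol from the 32285 features of the count matrices, and all 10 were found, each once. The cells are CD45-positive leukocytes of the liver of mice with the genotype label IL-22sgBFP, in which a blue fluorescent protein (BFP) reports Il22 expression. At 12 h the mice had received 300000 MC38 cells, a mouse colon carcinoma line, in PBS into the spleen, and at 0 h they had received no injection. Sorting split each time into IL-22-positive and IL-22-negative cells, so there are 4 libraries, 1 per group. The 12 h library and the 0 h library below mean the IL-22-negative ones unless the sort is named. An injection of PBS alone is not among the groups, so surgery, injection and cancer cells cannot be told apart. Strain, sex, age and the number of mice behind a library are not given in the labels, and all groups carry the reporter allele.

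T cells read further signals beside the antigen receptor. Members of the TNF receptor family (OX40, encoded by Tnfrsf4, GITR by Tnfrsf18 and CD137 by Tnfrsf9) and the CD28 family receptors CD28 and ICOS promote survival, division and cytokine production. CTLA-4, PD-1 (Pdcd1), TIGIT and LAG-3 dampen the response, and CD160 is a membrane-anchored receptor for the herpesvirus entry mediator that is common on NK cells and other cytotoxic lymphocytes. Regulatory T cells, which hold other T cells in check, carry OX40, GITR, ICOS, CTLA-4 and TIGIT without needing fresh stimulation. The liver is rich in invariant NKT cells, a class of innate-like T cells that depend on the factor PLZF (Zbtb16), and in type 1 innate lymphoid cells (ILC1), which share many receptors with NK cells.

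After filtering, 9710 cells of the 12 h library and 7963 of the 0 h library remained, at median depths of 2176 and 1795 UMIs (unique molecular identifiers, each marking a captured transcript). The IL-22-positive libraries held 1348 cells at 12 h and 287 at 0 h, at 3715.5 and 3385 UMIs. The suffix "-like" marks a name given from marker genes. T-cell-like cells numbered 3998 and 2568, and cells with NK or ILC1 markers 1449 and 686, in the 12 h and 0 h libraries. The 12 h and 0 h libraries shared 104 cell barcodes, 1.31% of the smaller one, and the other 5 pairs of libraries shared at most 11. Another 301 cells at 12 h and 1104 at 0 h carried T markers at a low depth (median 694 and 687 UMIs) and were kept apart. B-cell-like cells, which should lack most of these receptors, served as the measure of free RNA in droplets, at median depths of 1611 and 1724.5 UMIs, against 2319 and 2438.5 UMIs in T-cell-like cells.

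Levels are UMI sums of a cell type in a library, scaled to counts per 1000000 UMIs (CPM), with exact Poisson 95% intervals in parentheses. Ratios of 12 h over 0 h carry an exact interval conditional on both sums, and shares of cells an exact binomial one. All of these cover counting error only, and a ratio compares 2 libraries, not 2 conditions. A gene was called higher or lower where the ratio was at least 1.5 or at most 0.667 with at least 30 UMIs over both libraries. No test across samples was possible with 1 library per group.

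The TNF receptor members of the set lie on the plus strand of chromosome 4, and Tnfrsf4 and Tnfrsf18 are neighbours there, with 9551 bases and no protein-coding gene between them (GRCm38). Cd28, Ctla4 and Icos follow each other on the plus strand of chromosome 1, 113640 and 62094 bases apart. Promoter windows from RefSeq (GRCm38.p6, 250 bases before to 50 after the start) were at hand for 7 of the 10 genes, in 9 windows. They were searched on both strands for an AP-1 motif (TGANTCA), an NF-kappaB motif (10 letters, shown in capitals in the Tnfrsf9 window) and a STAT motif (TTCNNNGAA), which 7.81%, 1.63% and 8.30% of all 32851 promoter windows hold. For each TNF receptor gene 1 window is printed, because all 3 genes fell in a CD4 T cell cluster at 12 h and lie on 1 chromosome. Motif matches are in capitals, and all 3 windows are on the plus strand.
Tnfrsf4, chr4:156013445-156013744: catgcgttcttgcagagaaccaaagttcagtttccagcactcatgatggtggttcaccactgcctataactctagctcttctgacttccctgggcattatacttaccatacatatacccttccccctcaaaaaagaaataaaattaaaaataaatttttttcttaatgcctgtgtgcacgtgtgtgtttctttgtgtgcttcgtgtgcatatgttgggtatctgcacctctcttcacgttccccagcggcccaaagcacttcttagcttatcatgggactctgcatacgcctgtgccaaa
Tnfrsf18, chr4:156026072-156026371: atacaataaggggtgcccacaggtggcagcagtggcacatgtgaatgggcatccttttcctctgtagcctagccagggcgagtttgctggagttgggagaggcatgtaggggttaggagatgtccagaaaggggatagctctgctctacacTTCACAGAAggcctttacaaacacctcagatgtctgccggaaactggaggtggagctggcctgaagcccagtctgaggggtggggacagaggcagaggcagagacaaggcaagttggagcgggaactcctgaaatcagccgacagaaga
Tnfrsf9, chr4:150927749-150928048: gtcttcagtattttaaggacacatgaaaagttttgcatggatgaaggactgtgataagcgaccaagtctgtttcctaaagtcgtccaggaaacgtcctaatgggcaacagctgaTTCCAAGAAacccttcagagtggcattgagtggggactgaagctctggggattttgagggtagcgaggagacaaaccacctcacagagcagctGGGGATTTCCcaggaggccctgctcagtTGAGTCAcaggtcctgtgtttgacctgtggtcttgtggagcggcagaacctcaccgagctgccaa
The printed Tnfrsf9 window, at the downstream of its RefSeq starts, held all 3 motifs, at 136 (STAT), 43 (NF-kappaB) and 15 (AP-1) bases before the start, with no overlap between them. The other Tnfrsf9 window, at the upstream start (chr4:150919905-150920204), held none of them and is not printed. The Tnfrsf18 window held a STAT match 99 bases before the start, and the Tnfrsf4 window none of the 3. Of the other windows, 1 of Cd160 held a STAT match 234 bases before the start. A match describes letters, not bound factors, and no match says only that these letters are absent from the window.

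The receptors differed in the sets where they were highest, among sets of at least 50 cells in a library. At 0 h this left out type 17-like cells (41) and T cells led by interferon-induced genes (30). OX40 and CTLA-4 transcripts were highest in both libraries in a cluster of CD4 T cells that contained the Foxp3-expressing cells, and CD160 in a T cell cluster with NK receptor genes, followed by ILC1-like cells. GITR and ICOS were spread over several sets, and the same CD4 T cluster held 18.6% and 38.3% of the Tnfrsf18 UMIs of T-cell-like cells and 30.1% and 33.6% of the Icos UMIs, at 12 h and 0 h. CD8 effector-like cells led for TIGIT and PD-1 at 12 h and for LAG-3 at 0 h, with overlap with the next set each time. The cluster with the Foxp3 cells is called the regulatory and CD4 T cluster, because it also held CD4 T cells with little Foxp3. It comprised 550 cells at 12 h and 512 at 0 h, with Foxp3 at 41.5 and 47.9 CPM and Cd4 at 162 and 182 CPM. Markers used to name other sets were present, though Cd8a is shared with the other CD8 sets and Ncr1 with NK-like cells. Cd8a was 600.0 CPM at 12 h and 611 CPM at 0 h in CD8 effector-like cells. Zbtb16 was 58.2 and 64.5 CPM in innate-like T cells, and Ncr1 was 436 and 514 CPM in ILC1-like cells.

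Tnfrsf4 stood highest in the regulatory and CD4 T cluster in both libraries. Its level there was 337 CPM (307 to 370.4) in the 12 h library, against 704 CPM (654 to 757) in the 0 h library, and the intervals overlapped no other set in either library. The cluster held 77.4% of the Tnfrsf4 UMIs of T-cell-like cells at 12 h and 86.3% at 0 h. A Tnfrsf4 UMI was found in 0.939% and 1.75% of CD8 effector-like cells, and in NK-or-ILC1-like cells in 0.483% and 1.60%. The shares in B-cell-like cells were 0.878% and 1.88%, so Tnfrsf4 in these cells was at background.

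GITR was broader. Tnfrsf18 was 419 CPM in ILC1-like cells, 351 CPM in the regulatory and CD4 T cluster and 322 CPM in innate-like T cells at 12 h. At 0 h the same sets had 403, 590.1 and 289 CPM. ILC1-like cells thus led at 12 h and the regulatory and CD4 T cluster at 0 h, each without overlap with the next set. Naive-like CD4 and CD8 T cells were lowest, at 77.8 and 78.1 CPM at 12 h and 79.3 and 64.4 CPM at 0 h. B-cell-like cells had 41.0 and 56.7 CPM. CD137 was highest per UMI in ILC1-like cells at 12 h, when Tnfrsf9 was 103 CPM (88.2 to 120.3) in ILC1-like and 58.0 CPM (45.6 to 72.9) in NK-like cells, which overlapped the Klra5-led T cluster described below (53.3 CPM (36.0 to 76.1)). At 0 h the regulatory and CD4 T cluster (80.5 CPM (64.2 to 99.6)), NK-like (79.0 CPM) and ILC1-like cells (69.6 CPM) overlapped in their intervals.

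Among the CD28 family, Icos followed the CD4, innate-like and type 17 sets. At 12 h it was 299 CPM (248 to 358) in the 148 type 17-like cells and 244 CPM (218 to 273) in the regulatory and CD4 T cluster, with overlapping intervals. At 0 h that cluster had 180.1 CPM (155 to 208). The 41 type 17-like cells at 0 h, with 28 Icos UMIs, were left out of the order. NK-like cells had 11.8 and 7.18 CPM, near the 5.86 and 8.82 CPM of B-cell-like cells. Cd28 itself varied less between T cell sets. At 0 h it was 165 CPM in innate-like T cells, 149 CPM in the regulatory and CD4 T cluster and 148 CPM in naive-like CD4 T cells, with overlapping intervals. At 12 h the regulatory and CD4 T cluster was highest, at 204 CPM (179.8 to 229.7). Its interval lay above that of innate-like T cells, at 163 CPM (149 to 178), but overlapped that of type 17-like cells, at 141 CPM (106 to 183).

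Of the inhibitory receptors, Ctla4 was highest in the regulatory and CD4 T cluster, at 264 CPM (237 to 294) at 12 h and 323 CPM (289 to 359) at 0 h. CD8 effector-like cells came next, at 115 and 117 CPM. Pdcd1 was rare, with 231 UMIs in all libraries together. CD8 effector-like cells had 36.2 CPM (21.5 to 57.3) in the 12 h library, against 43.2 CPM (25.2 to 69.2) in the 0 h library. Tigit was 234 CPM (193 to 280.1) in CD8 effector-like cells at 12 h and 272 CPM (223 to 329) at 0 h, and 206 and 208 CPM in a T cell cluster led by the NK receptor gene Klra5. The regulatory and CD4 T cluster held the top place for Tigit at 0 h, at 353 CPM (317 to 390.4), and overlapped CD8 effector-like cells. Lag3 was highest in ILC1-like cells at 12 h (46.7 CPM (36.7 to 58.5)) and in CD8 effector-like cells at 0 h (91.6 CPM (64.1 to 127)), and the 2 sets overlapped at both times.

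Cd160 had the clearest order. The Klra5-led T cluster, 257 cells at 12 h and 118 at 0 h with Cd3e at 979.5 and 1093 CPM and Tyrobp at 1900.4 and 2128 CPM, had 1241 CPM (1150.5 to 1336) and 1274 CPM (1140.0 to 1418). ILC1-like cells followed at 728 CPM (687 to 771) and 877 CPM (811 to 947), with no overlap with the sets above or below. NK-like cells had only 146 and 142 CPM, and the regulatory and CD4 T cluster 29.97 and 32.6 CPM. The marker list that scored highest in the Klra5-led cluster was that of gamma-delta T cells, and Trdc and Cd8a were among the cluster's leading genes. The heat map of levels shows these orders for all 10 genes.

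**Figure D1:**
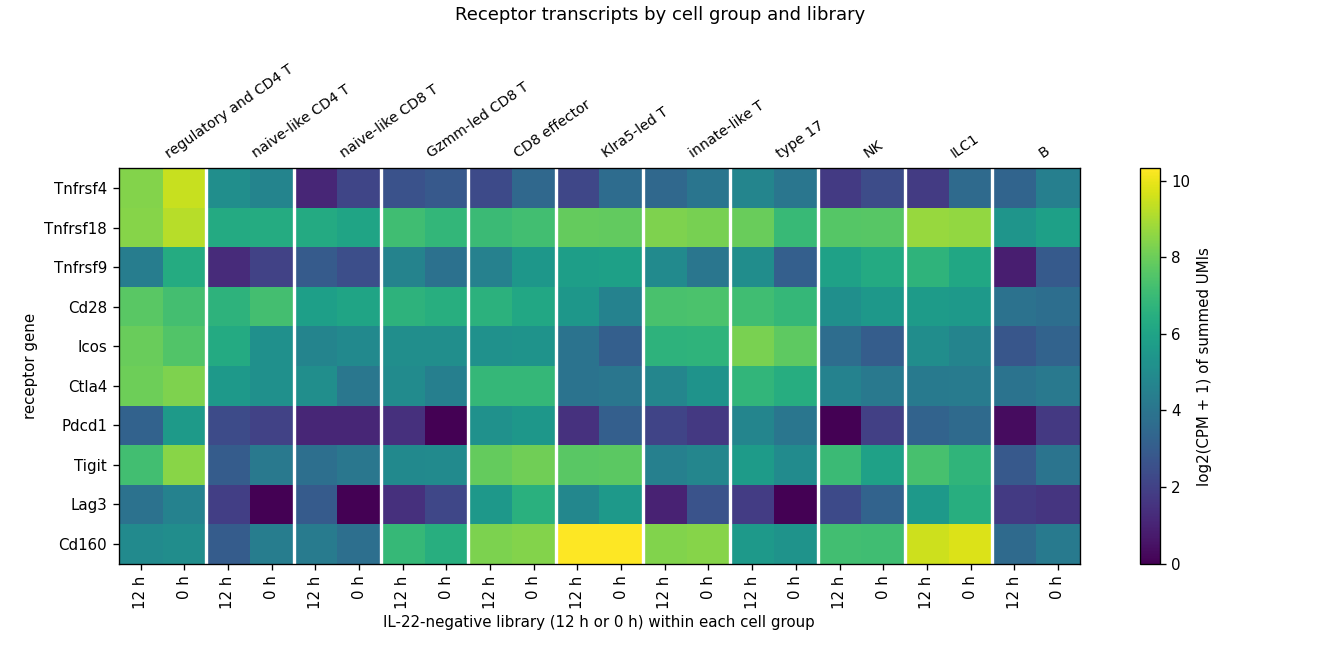
Level of each of the 10 receptor genes, as log2(CPM + 1) of the UMI sum, in 11 sets of IL-22-negative lymphocytes, with the 12 h value left of the 0 h value. Tnfrsf4 and Ctla4 are brightest in the regulatory and CD4 T cluster, and Cd160 is brightest in the Klra5-led T cluster, where it was 1241 CPM at 12 h and 1274 CPM at 0 h.

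Over all T-cell-like cells, 4 receptors fell at 12 h and none rose: Tnfrsf4, Pdcd1, Tigit and Lag3. Of all 10239 genes with enough UMIs in these cells, 9% were called in either direction, 3.39% higher and 5.61% lower. Tnfrsf4 fell to 52.4 CPM (48.2 to 56.9) in the 12 h library, against 122 CPM (114 to 130.0) in the 0 h library, a ratio of 0.431 (0.387 to 0.480). Tigit fell to 58.9 CPM (54.5 to 63.7), against 97.9 CPM (90.7 to 106) at 0 h, a ratio of 0.602 (0.540 to 0.672). The intervals of the 2 libraries did not overlap for either gene. Pdcd1 was 6.10 CPM at 12 h and 12.3 CPM at 0 h (ratio 0.497 (0.355 to 0.693)), and Lag3 7.95 and 13.4 CPM (0.592 (0.437 to 0.802)). The ratios of the 6 receptors that were not called were 0.832 for Ctla4, 0.936 for Tnfrsf9, 0.988 for Tnfrsf18, 1.05 for Cd28, 1.15 for Cd160 and 1.22 for Icos. The median log2 ratio was -0.18 over the 10 receptors and -0.05 over all genes with enough UMIs. In B-cell-like cells 4 of the 7 receptors with enough UMIs were also called lower at 12 h, beside 10.5% of all genes. Tnfrsf4 was 9.06 against 20.7 CPM there (ratio 0.438 (0.285 to 0.661)) and Tigit 6.39 against 14.6 CPM (0.437 (0.260 to 0.715)), and the other two were Icos (0.664) and Cd160 (0.610). The part of free RNA in the T cell values was not tested.

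Most of these calls depended on the regulatory and CD4 T cluster, which made up 13.8% of T-cell-like cells at 12 h and 19.9% at 0 h. Without it, Tnfrsf4 was 13.4 against 19.6 CPM for 12 h against 0 h (ratio 0.685 (0.529 to 0.888)), Pdcd1 5.78 against 6.04 CPM (0.957 (0.617 to 1.499)) and Tigit 46.9 against 53.3 CPM (0.880 (0.761 to 1.02)), and none of the 3 was called. Lag3 stayed lower (7.14 against 11.7 CPM, 0.608 (0.429 to 0.862)), and Tnfrsf9 was called higher (24.2 against 15.6 CPM, 1.55 (1.21 to 1.99)), beside 9.2% of all genes called there.

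**Figure D2:**
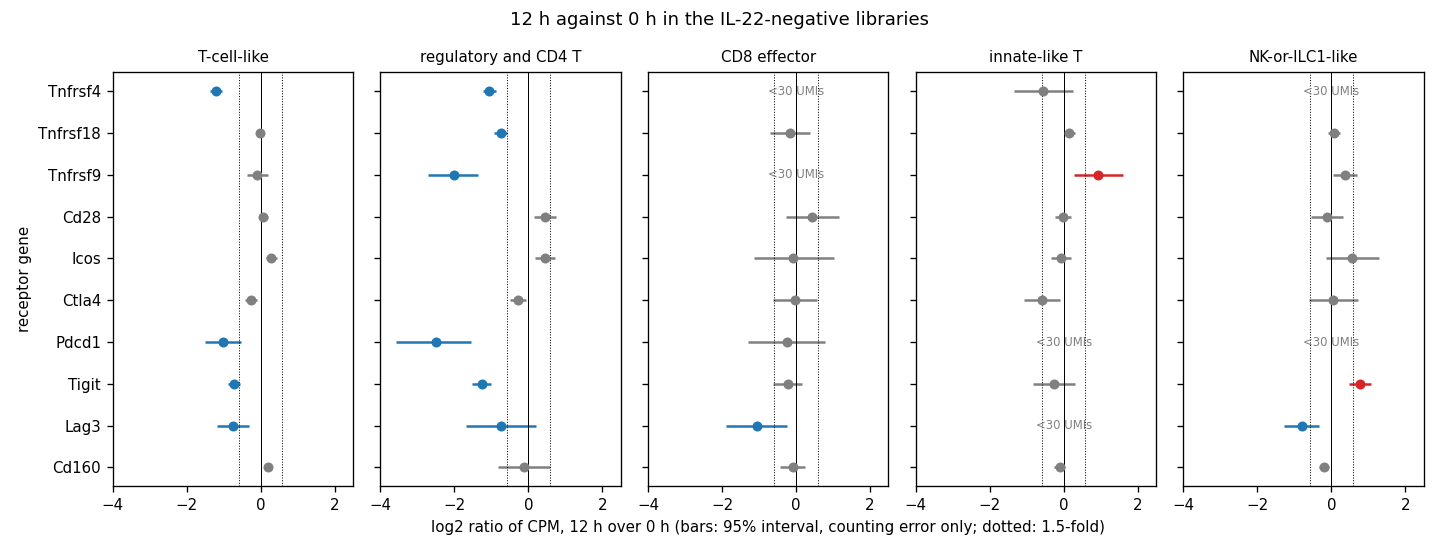
Ratio of the 12 h library over the 0 h library for each receptor, on a log2 axis with its exact 95% interval, in 5 sets of IL-22-negative cells. Red points were called higher and blue ones lower, grey points were not called, and a receptor with under 30 UMIs is marked so. The regulatory and CD4 T panel holds 6 blue points, with Pdcd1 lowest at a ratio of 0.176.

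Within the regulatory and CD4 T cluster, 6 of the 10 receptors fell, 3 of them of the TNF receptor family and 3 inhibitory, beside 15.7% of all 5993 genes called there in either direction (4.37% higher, 11.4% lower). The stimulatory receptor GITR fell to 351 CPM (319.7 to 385) for Tnfrsf18 at 12 h, against 590.1 CPM (544 to 639) at 0 h (ratio 0.595 (0.526 to 0.673)). OX40 (Tnfrsf4, 337 against 704 CPM) had a ratio of 0.479 (0.425 to 0.540). CD137 (Tnfrsf9) fell to 19.98 CPM (13.1 to 29.3), against 80.5 CPM (64.2 to 99.6) at 0 h, a ratio of 0.248 (0.153 to 0.389). For each of these 3 genes the 12 h and 0 h intervals lay apart.

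Among the inhibitory receptors of that cluster, Tigit fell to 147 CPM (127 to 169) at 12 h, against 353 CPM (317 to 390.4) at 0 h (ratio 0.416 (0.348 to 0.497)). Pdcd1 counted 11 UMIs at 12 h and 50 at 0 h, at 8.45 and 47.9 CPM (0.176 (0.0828 to 0.343)). Lag3 passed the rule with 18 and 24 UMIs (0.602 (0.308 to 1.16)), but its interval includes a ratio of 1. Ctla4 was 264 against 323 CPM (0.819 (0.703 to 0.954)) and was not called. Icos (244 against 180.1 CPM, 1.36 (1.13 to 1.63)) and Cd28 (204 against 149 CPM, 1.36 (1.11 to 1.67)) lay above 1 without reaching the fold, and Cd160 (29.97 against 32.6 CPM, 0.920 (0.566 to 1.503)) was not called. The median log2 ratio of the 10 receptors was -0.74 in this cluster, and -0.08 over all genes there.

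The shares of cells with a UMI ran the same way. With every cell thinned to 1000 UMIs, a Tnfrsf4 UMI was found in 22.4% of the cluster at 12 h and 37.7% at 0 h. The unthinned shares were 33.8% (29.9 to 37.9) and 48.2% (43.8 to 52.7), at median depths of 1963 and 1708.5 UMIs. For Tigit the thinned shares were 13.6% and 29.4%, and the unthinned ones 22.7% (19.3 to 26.5) and 41.2% (36.9 to 45.6). The B-cell-like shares were 1.03% and 2.07% for Tigit.

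The make-up of the regulatory and CD4 T cells differed between the libraries in a finer clustering of all lymphocytes, chosen after these values were seen. It gave a cluster with more Foxp3 (138 cells at 12 h, 311 at 0 h) and a cluster of other CD4 T cells (346 and 180 cells). Both were drawn anew and are not a division of the cluster above. In the cluster with more Foxp3, Foxp3 was 135 CPM at 12 h and 79.8 CPM at 0 h. Ccl5, a chemokine gene of effector lymphocytes, was 1195 and 4098 CPM there. Pdcd1 (13.5 against 69.9 CPM, ratio 0.193 (0.0596 to 0.487)), Tnfrsf9 (37.8 against 131 CPM, 0.287 (0.150 to 0.511)) and Tigit (316 against 536 CPM, 0.589 (0.473 to 0.730)) were called lower there as well, beside 22.9% of all genes. Tnfrsf4 (723 against 1054 CPM, 0.685 (0.592 to 0.792)) and Tnfrsf18 (672 against 849.8 CPM, 0.790 (0.676 to 0.921)) no longer reached the fold. Icos was called higher there, at 353 CPM (295 to 419) at 12 h, against 179.6 CPM (147 to 217) at 0 h (ratio 1.97 (1.51 to 2.56)). In the other CD4 T cells, Ctla4 was called higher (217 against 135 CPM, 1.60 (1.17 to 2.23)) and Cd160 lower (36.8 against 56.1 CPM, 0.656 (0.360 to 1.21)), beside 14.6% of all genes.

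Taking T-cell-like cells with a Foxp3 UMI, whatever their cluster, left 70 cells at 12 h and 51 at 0 h. Icos was again called higher in them (294 against 164 CPM, ratio 1.79 (1.13 to 2.92)) and Tigit lower (159 against 258 CPM, 0.615 (0.387 to 0.978)), beside 19.9% of all genes called. Tnfrsf4 was 469 against 612 CPM (0.767 (0.580 to 1.02)) and Tnfrsf18 461 against 593 CPM (0.778 (0.586 to 1.03)), with intervals that include 1. Pdcd1 had 1 UMI at 12 h and 7 at 0 h, too few to be called. Tigit was thus lower at 12 h under all 3 definitions of these cells, while the Tnfrsf4 and Tnfrsf18 calls were lost in the cells with more Foxp3.

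**Figure D3:**
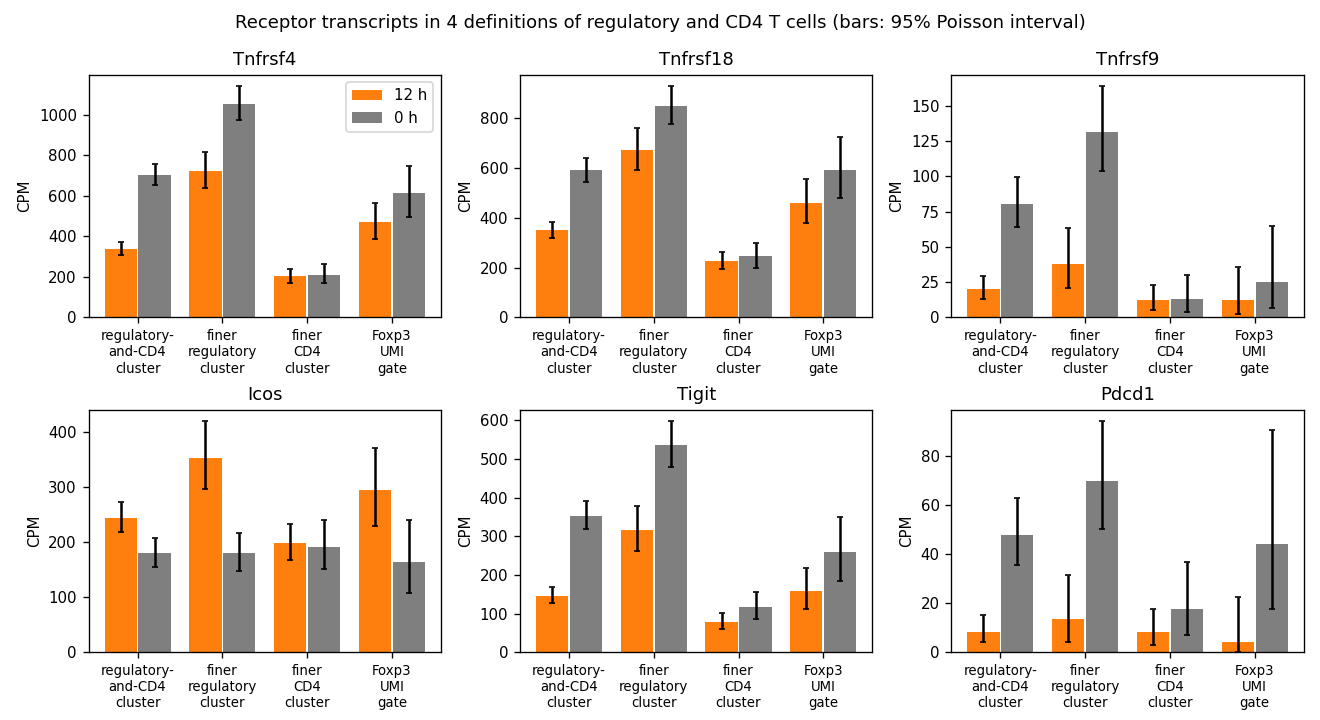
Levels in CPM, with exact Poisson 95% intervals, of 6 receptors at 12 h (orange, left) and 0 h (grey, right) under 4 definitions of regulatory or CD4 T cells. Tigit has the lower value at 12 h in each definition, and Icos is higher at 12 h in the cluster with more Foxp3, at 353 CPM against 179.6 CPM.

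Markers of other cells moved in the regulatory and CD4 T cluster too. All 8 B cell markers were detected in both libraries, at a summed level of 162 CPM at 12 h and 289 CPM at 0 h, and 4 of 7 plasma cell markers at 66.8 and 189.7 CPM, with Sdc1, Derl3 and Tnfrsf17 at 0. Of the 12 NK markers 11 were detected, at 185 and 287 CPM. Plasmacytoid dendritic cell markers summed to 366 and 240.4 CPM, 7 of 7 detected, and hepatocyte markers to 40.0 CPM at 12 h, with all 6 at 0 at 0 h. Their part in the receptor values was not tested.

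In CD8 effector-like cells (213 cells at 12 h, 171 at 0 h), Lag3 was the 1 receptor called of the 8 with enough UMIs, and it fell, beside 15.4% of all genes called there (6.6% higher, 8.78% lower). Lag3, which binds MHC class II, had 44.3 CPM (27.8 to 67.1) in the 12 h library, against 91.6 CPM (64.1 to 127) in the 0 h library, a ratio of 0.484 (0.271 to 0.845). The 2 intervals overlapped slightly. The call did not hold in cells chosen by marker UMIs in place of the cluster, where Lag3 was 13.9 against 20.6 CPM (ratio 0.673). Tnfrsf9 was 22.1 against 43.2 CPM from 11 and 17 UMIs, under the minimum, as were the 2 and 4 UMIs of Tnfrsf4. Tigit (234 against 272 CPM, 0.858 (0.654 to 1.13)), Ctla4 (115 against 117 CPM, 0.981 (0.653 to 1.48)), Pdcd1 (36.2 against 43.2 CPM, 0.838 (0.407 to 1.73)) and Cd160 (312 against 333 CPM, 0.936 (0.737 to 1.19)) were not called, and their intervals include 1. Those of Tnfrsf18 (0.889 (0.612 to 1.29)), Icos (0.950 (0.452 to 2.02)) and Cd28 (1.36 (0.834 to 2.25)) do as well. The median log2 ratio was -0.13 over the receptors with enough UMIs and -0.02 over all such genes.

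Innate-like T cells, the largest T cell set with 1296 cells at 12 h and 687 at 0 h, had a higher level of CD137 at 12 h. Tnfrsf9 rose to 29.4 CPM (23.6 to 36.2) at 12 h, against 15.6 CPM (10.2 to 22.6) at 0 h, a ratio of 1.89 (1.22 to 3.03), and was the 1 receptor called of 8, beside 13% of all genes (3.23% higher, 9.75% lower). The intervals of the 2 libraries did not overlap. A Tnfrsf9 UMI was found, at 1000 UMIs a cell, in 2.28% of the 12 h cells and 1.34% of the 0 h cells, and unthinned in 4.94% and 3.78%. B-cell-like cells had unthinned shares of 0.155% and 1.01%, at median depths of 1611 and 1724.5 UMIs against 2151.5 and 2371 UMIs in innate-like T cells. In T-cell-like cells with a Zbtb16 UMI, Tnfrsf9 was 31.4 against 26.7 CPM from 18 and 9 UMIs, a ratio of 1.18 (0.502 to 2.97), so the call did not hold in that gate.

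The abundant receptors of innate-like T cells differed little between the libraries. Tnfrsf18 was 322 against 289 CPM (ratio 1.11 (0.9997 to 1.24)), Cd160 324 against 348 CPM (0.930 (0.840 to 1.03)), Cd28 163 against 165 CPM (0.984 (0.849 to 1.14)) and Icos 99.8 against 105 CPM (0.952 (0.790 to 1.15)). Ctla4 (25.8 against 38.6 CPM, 0.668 (0.476 to 0.940)) and Tnfrsf4 (10.2 against 14.98 CPM, 0.684 (0.393 to 1.20)) lay just short of the fold, and Tigit was 21.5 against 25.9 CPM (0.829 (0.558 to 1.24)). Lag3 and Pdcd1 were too rare to call, with 3 and 9 UMIs for Lag3 and 10 and 4 for Pdcd1 at 12 h and 0 h. The median log2 ratio was -0.09 over the receptors with enough UMIs and -0.10 over all genes.

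In NK-or-ILC1-like cells Tigit rose and Lag3 fell, 2 of the 8 receptors with enough UMIs, beside 12.1% of all genes (3.75% higher, 8.38% lower). Tigit, which competes with the activating receptor CD226 for the ligand CD155, rose to 139.8 CPM (127 to 153) at 12 h, against 82.1 CPM (68.3 to 97.8) at 0 h (ratio 1.70 (1.39 to 2.09)). Lag3 fell to 26.7 CPM (21.4 to 33.0), against 46.6 CPM (36.4 to 58.8) at 0 h (0.573 (0.414 to 0.796)). Both pairs of intervals lay apart. With the receptors and their partner genes kept among the genes used for clustering, the Tigit ratio was 1.46 and was not called. Of the others, Icos (22.1 against 15.1 CPM, 1.46 (0.905 to 2.45)) lay just short of the fold. Tnfrsf9 had a ratio of 1.28 (1.03 to 1.61), Tnfrsf18 of 1.04 (0.932 to 1.17), Ctla4 of 1.03 (0.656 to 1.66), Cd28 of 0.922 (0.688 to 1.25) and Cd160 of 0.871 (0.797 to 0.952), and none was called. Tnfrsf4 counted 7 and 11 UMIs and Pdcd1 16 and 10, under the minimum. The median log2 ratio was 0.05 over the receptors with enough UMIs and -0.08 over all genes.

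Tigit was called in NK-like cells and Lag3 in ILC1-like cells. In the 598 and 330 NK-like cells, Tigit was 129 against 58.9 CPM (ratio 2.20 (1.55 to 3.17)) and was called, beside 13.3% of all genes, and Lag3 had only 5 and 6 UMIs. In the 756 and 343 ILC1-like cells, Lag3 was 46.7 against 87.0 CPM (0.536 (0.380 to 0.759)) and was called, beside 14.1% of all genes, while Tigit was 157 against 106 CPM (1.49 (1.15 to 1.94)), just short of the fold. The difference between the 2 kinds of cells was not tested. The thinned share of NK-like cells with a Tigit UMI was 12.7% at 12 h and 5.35% at 0 h, and the unthinned share 22.6% and 10.6%. Tnfrsf9 was 103 against 69.6 CPM in ILC1-like cells (1.48 (1.08 to 2.07)) and 58.0 against 79.0 CPM in NK-like cells (0.735 (0.511 to 1.06)), and neither was called. In the finer clustering, a cluster of NK-like cells led by Ccl1 (122 cells at 12 h, 11 at 0 h) had Tnfrsf9 among its leading genes. Its part in these Tnfrsf9 values was not tested. Cd160 in ILC1-like cells was 728 against 877 CPM (0.830 (0.754 to 0.915)) and Tnfrsf18 419 against 403 CPM (1.04 (0.907 to 1.20)).

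Of the smaller T cell sets, type 17-like cells (148 at 12 h, 41 at 0 h) had 249 CPM (202 to 303) in the 12 h library, against 123 CPM (70.4 to 200.1) in the 0 h library for Tnfrsf18. This was the 1 receptor called of 4 with enough UMIs there (ratio 2.02 (1.19 to 3.68), 20.2% of all genes called), from 99 and 16 UMIs. In the Klra5-led T cluster Cd28 was the 1 called of 5, from 24 and 6 UMIs (1.85 (0.736 to 5.53), 16.5% of all genes), and its interval includes 1. In naive-like CD4 T cells Icos was the 1 called of 5 (77.8 against 35.1 CPM, a ratio of 2.22 (1.34 to 3.77), beside 13.5% of all genes), and Cd28 was 101 against 148 CPM (0.685 (0.498 to 0.938)). In naive-like CD8 T cells Ctla4 was the 1 called of 4 (33.3 against 16.1 CPM, 2.07 (1.06 to 4.23), beside 13.1% of all genes). A CD8 cluster led by Gzmm had Tnfrsf9 as the 1 called of 7, at 23.3 against 13.6 CPM (1.72 (0.975 to 3.13), beside 11.7% of all genes), with an interval that includes 1. Tnfrsf18 was 139 against 113 CPM there (1.23 (1.01 to 1.52)) and Cd160 120.1 against 88.6 CPM (1.35 (1.08 to 1.70)), and neither was called.

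Cycling T-like cells (135 at 12 h, 58 at 0 h) had 3 receptors lower and 1 higher of 7, beside 17.8% of all genes called. Tnfrsf4 was 22.3 against 121 CPM (0.184 (0.104 to 0.313)), Ctla4 68.0 against 109.5 CPM (0.620 (0.417 to 0.928)) and Tigit 47.9 against 81.6 CPM (0.587 (0.367 to 0.945)), while Cd160 was higher, at 182 against 114 CPM (1.59 (1.15 to 2.24)). In the T cells led by interferon-induced genes (267 at 12 h, 30 at 0 h), 2 of 6 were higher and 2 lower, beside 34.1% of all genes. Tnfrsf18 was 279 against 98.6 CPM (2.83 (1.47 to 6.28)) and Cd160 95.6 against 230.0 CPM (0.416 (0.254 to 0.710)). Tnfrsf4 (1.67 (0.421 to 14.4)) and Cd28 (0.582 (0.337 to 1.07)) had intervals that include 1.

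Cells with UMIs of more than 1 receptor were counted next. At 1000 UMIs a cell, 36.6% (32.4 to 40.9) of the regulatory and CD4 T cluster at 12 h and 52.8% (48.1 to 57.3) at 0 h held UMIs of at least 2 of the 10 receptors. In ILC1-like cells the shares were 31.1% (27.8 to 34.6) and 36.3% (31.2 to 41.8), in CD8 effector-like cells 17.3% (12.4 to 23.3) and 27.8% (21.2 to 35.2), and in innate-like T cells 17.7% (15.6 to 19.9) and 20.5% (17.5 to 23.7). B-cell-like cells gave 0.649% and 1.17%. The intervals of the 2 libraries lay apart in the regulatory and CD4 T cluster and overlapped in the other 3 lymphocyte sets. The commonest pair of the cluster was Tnfrsf4 with Tnfrsf18, which 117 (of 550) cells held at 12 h and 175 (of 512) at 0 h. In innate-like T cells the commonest pair was Tnfrsf18 with Cd160, in 270 (of 1296) and 165 (of 687) cells, and in ILC1-like cells the same pair was found in 296 (of 756) and 132 (of 343) cells. In CD8 effector-like cells it was Tigit with Cd160, in 25 (of 213) and 24 (of 171) cells. The product of the shares of cells with each gene, times the number of cells, came to 85.2 and 140.4 cells for the pair of the regulatory and CD4 T cluster, below both counts. It was 276 and 154 cells in innate-like T cells, 286 and 135 in ILC1-like cells and 27.1 and 20.3 in CD8 effector-like cells, above the count in some libraries and below it in others. Pair counts are unthinned and depend on depth.

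Partner genes of the same pathways were followed in 4 lists: 15 ligands, 24 other receptors of T and NK cells, 18 signalling genes and 14 transcription regulators. In the regulatory and CD4 T cluster, 1 of 15 other receptors with enough UMIs was higher and 5 were lower, beside 4.37% of all genes higher and 11.4% lower. The list's median log2 ratio was -0.26, against -0.08 for all genes. Cd40lg, whose product CD40 ligand licenses B cells and dendritic cells, was 152 against 58.4 CPM for 12 h against 0 h (ratio 2.60 (1.94 to 3.53)). Those lower were Cd226, Tnfrsf1b, Cd200r1, Klrg1 and Entpd1. Klrg1, a receptor of differentiated effector cells, was 37.7 against 103 CPM (0.364 (0.254 to 0.515)), and Tnfrsf1b, the TNF receptor common on regulatory T cells, 11.5 against 29.7 CPM (0.388 (0.195 to 0.741)).

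Of the 18 signalling genes there, 4 were lower and none higher (median -0.16): Traf3 (20.7 against 42.1 CPM) and Traf5 (15.4 against 25.9 CPM), adaptors of the TNF receptor family, Nfkb2 (16.9 against 34.5 CPM), a subunit of the non-canonical NF-kappaB pathway, and the survival gene Bcl2l1 (13.8 against 22.0 CPM). The intervals of Traf5 (0.594 (0.316 to 1.10)) and Bcl2l1 (0.628 (0.319 to 1.22)) include 1, and 11.4% of all genes were lower. Of 12 regulators with enough UMIs, 5 were lower and none higher, beside the same 11.4% of all genes (median -0.30, against -0.08 over all genes). These were Nr4a1 (59.9 against 102 CPM), Nr4a2 (71.5 against 136 CPM) and Nr4a3 (16.9 against 30.7 CPM), which are induced by antigen receptor signalling, with Tox (74.5 against 118 CPM) and Ikzf2 (155 against 257 CPM), the gene of the regulatory T cell factor Helios. Foxp3 itself was 41.5 against 47.9 CPM and was not called. Among 3 ligands with enough UMIs, Pdcd1lg2 was lower (25.4 against 70.9 CPM). In B-cell-like cells 3 of 10 regulators were called lower too (Tox, Nr4a3 and Tcf7) and none higher, with a list median of -0.44. Of 15 other receptors 4 were lower there, Cd200r1 among them. The part of free RNA in the values of the regulatory and CD4 T cluster was not tested.

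In all T-cell-like cells, Havcr2 (2.03 against 3.28 CPM), Cd200r1 (16.4 against 25.3 CPM) and Klrg1 (16.3 against 26.5 CPM) were lower among 23 other receptors, and no signalling gene was called of 18, beside 5.61% of all genes lower. The interval of Havcr2, from 22 and 23 UMIs, includes 1 (ratio 0.619 (0.329 to 1.16)). Of the 14 regulators Irf4 was lower (5.36 against 8.85 CPM), and of 8 ligands Cd274, which encodes PD-L1, was higher (18.4 against 11.7 CPM, ratio 1.57 (1.21 to 2.06)). Innate-like T cells had Cd274 (17.2 against 10.9 CPM), Nt5e (11.6 against 4.03 CPM) and Nfkb2 (45.9 against 28.2 CPM) higher, and Cd244a (2.98 against 12.1 CPM), Irf4 (3.64 against 14.4 CPM) and Tcf7 (31.4 against 58.8 CPM) lower. In CD8 effector-like cells Lgals3 (282 against 183 CPM), Prkcq (92.6 against 53.4 CPM) and Tcf7 (84.6 against 43.2 CPM) were higher, and Maf (38.3 against 66.1 CPM) and Eomes (66.4 against 114 CPM) lower. The intervals of Cd274 in innate-like T cells (1.57 (0.913 to 2.81)) and Maf in CD8 effector-like cells (0.578 (0.303 to 1.09)) include 1. Of all genes 13% and 15.4% were called in the 2 sets. These sets had 5 and 1 ligands, 20 and 9 other receptors, 18 and 11 signalling genes and 12 and 9 regulators with enough UMIs. In B-cell-like cells Lgals3 was the 1 ligand called of 5, also higher (59.4 against 38.8 CPM). Cd200r1 was among the 4 of 15 other receptors called lower there, and Tcf7 among the 3 of 10 regulators. The part of free RNA in the T cell values was not tested.

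NK-or-ILC1-like cells had 4 of 6 ligand genes higher. Tnfsf9, the ligand of CD137, was 8.60 against 1.31 CPM, from 28 UMIs at 12 h and only 2 at 0 h. Icosl was 11.4 against 5.91 CPM, Pdcd1lg2 61.4 against 35.5 CPM and Lgals3 85.4 against 49.3 CPM. The median log2 ratio of these ligands was 0.79, against -0.08 over all genes, of which 3.75% were higher and 8.38% lower. Lair1 (11.98 against 6.57 CPM) was higher among 18 other receptors. Of 18 signalling genes Traf2 (17.8 against 11.2 CPM) was higher and Vav1 (37.2 against 57.1 CPM) lower, and of 12 regulators Nr4a1 (33.5 against 53.2 CPM), Nr4a3 (17.2 against 26.9 CPM) and Prdm1 (11.1 against 17.1 CPM) were lower. The intervals of Icosl (1.92 (0.911 to 4.53)), Lair1 (1.82 (0.894 to 4.10)), Traf2 (1.60 (0.916 to 2.92)) and Prdm1 (0.648 (0.380 to 1.12)) include 1. Nr4a3 was also among the 3 of 10 regulators called lower in B-cell-like cells.

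Among the leukocytes that could present ligands, conventional dendritic-like cells had Tnfsf9 at 74.1 CPM at 12 h and 56.6 CPM at 0 h and Cd86, the ligand shared by CD28 and CTLA-4, at 65.6 CPM at 12 h and 59.8 CPM at 0 h. B-cell-like cells had Cd86 at 48.7 CPM at 12 h and 47.4 CPM at 0 h and Icosl at 24.0 CPM at 12 h and 33.0 CPM at 0 h, and monocyte-like cells Cd86 at 43.5 CPM at 12 h and 33.9 CPM at 0 h. The PD-1 ligand Pdcd1lg2 was 61.4 CPM at 12 h and 35.5 CPM at 0 h in NK-or-ILC1-like cells, 38.4 CPM at 12 h and 36.1 CPM at 0 h in T-cell-like cells and 33.3 CPM at 12 h and 34.5 CPM at 0 h in B-cell-like cells. In innate-like T cells it was 77.4 CPM at 12 h and 62.2 CPM at 0 h. Lgals3, reported as a ligand of LAG-3, was 2763 CPM at 12 h and 2868 CPM at 0 h in monocyte-like cells. Transcripts for the ligands of OX40 and GITR were almost absent, with Tnfsf4 at 0 UMIs in T-cell-like, monocyte-like and dendritic-like cells of both libraries, and Tnfsf18 at 1 UMI in all classes of both libraries together. Non-leukocytes were sorted out of these samples, so ligands of hepatocytes and endothelial cells were not measured.

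**Figure D4:**
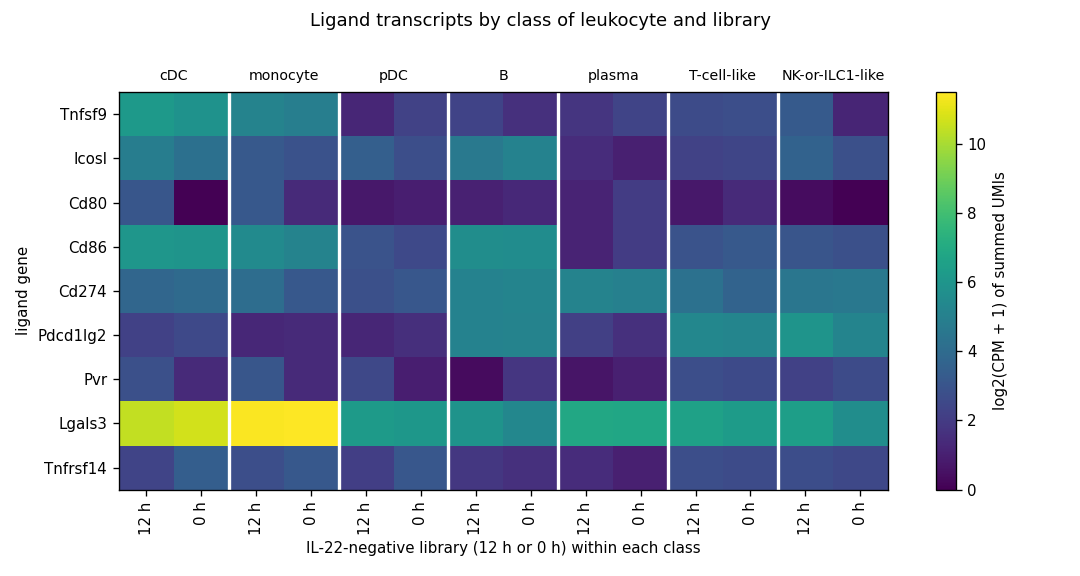
Level of 9 ligand genes, as log2(CPM + 1), in 7 classes of IL-22-negative leukocytes, with the 12 h value left of the 0 h value. Lgals3 is highest in monocyte-like and dendritic-like cells and Tnfsf9 in dendritic-like cells, at 74.1 CPM at 12 h and 56.6 CPM at 0 h.

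Some of the receptor transcripts lay outside T, NK and ILC1 cells, in classes examined after their values were seen. Of all 794 Lag3 UMIs of the 4 libraries, 51.5% were in other classes. Plasmacytoid dendritic-like cells had 105 CPM (88.9 to 122) in the 12 h library, against 113 CPM (93.5 to 135) in the 0 h library, which exceeds the level of every T cell set at 12 h. Conventional dendritic-like cells had 14.1 and 17.8 CPM, and B-cell-like cells 2.40 and 2.02 CPM. None of the 4 receptors with enough UMIs was called in the plasmacytoid class, beside 12.4% of all genes.

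Plasma-like cells held Ctla4 and Tigit. Ctla4 was 100.4 CPM (85.8 to 117) in the 12 h library, against 148 CPM (125 to 174) in the 0 h library, where B-cell-like cells had 14.1 and 16.9 CPM. Tigit was 108 CPM (92.5 to 124) at 12 h, against 65.1 CPM (50.2 to 83.2) at 0 h (ratio 1.65 (1.23 to 2.23)), and was the 1 receptor of 4 called, beside 22.4% of all genes. Plasma-like cells were deep, at a median of 12061 and 11317 UMIs, and 51.1% and 62.9% of them had a Ctla4 UMI. At 1000 UMIs a cell the shares were 10.00% and 17.02%. Cd28, which plasma cells are known to express, was 62.4 and 69.2 CPM.

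The cells of low depth with T markers stood out for the same genes. They had Ctla4 at 594 CPM (509 to 688) at 12 h and 529 CPM (483 to 579) at 0 h, and Cd28 at 584 and 565 CPM, both above every set of deeper T cells. Low-depth cells with T or NK markers held 26.4% of all Ctla4 UMIs and 20.7% of all Cd28 UMIs. They were more numerous at 0 h than at 12 h. With them counted among the T-cell-like cells, Ctla4 joined the 4 receptors called lower there.

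**Figure D5:**
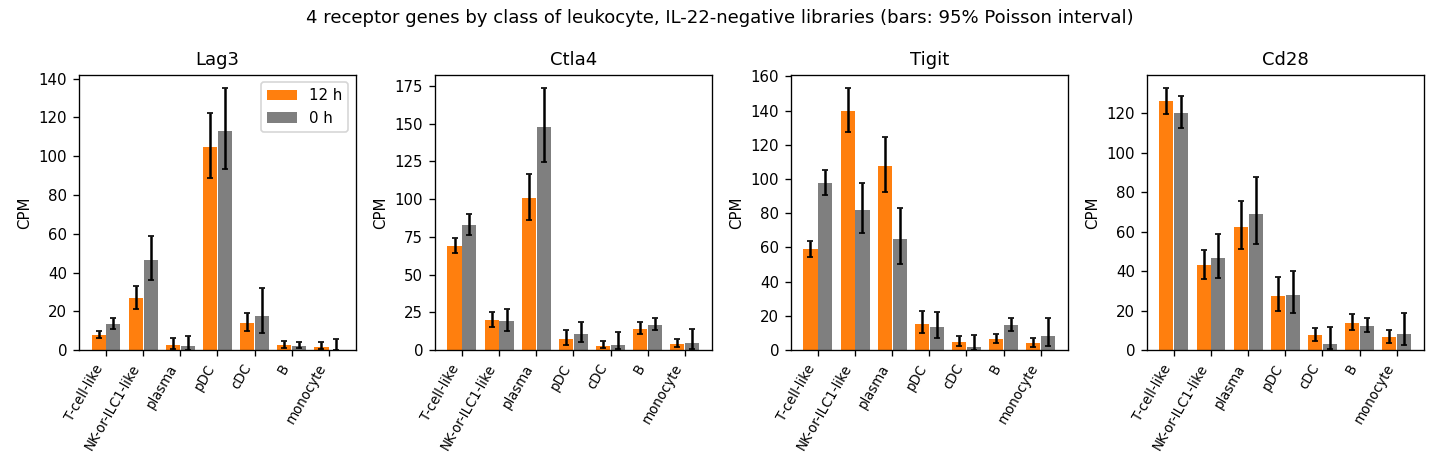
Levels in CPM, with exact Poisson 95% intervals, of Lag3, Ctla4, Tigit and Cd28 at 12 h (orange, left) and 0 h (grey, right) in 7 classes of IL-22-negative leukocytes. Lag3 is highest in plasmacytoid dendritic-like cells, at 105 and 113 CPM, and Tigit in plasma-like cells at 12 h is 108 CPM.

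The IL-22-positive libraries had few T-cell-like cells, 39 at 12 h and 40 at 0 h, so only large differences could be seen. The rule for a call was not applied here, because the IL-22-negative library alone passes the UMI minimum for each receptor. The make-up of the cells differed too: type 17-like cells were 1 of 39 IL-22-positive and 148 of 3998 IL-22-negative T-cell-like cells at 12 h, and 8 of 40 and 41 of 2568 at 0 h. Its part in the values below was not tested. Cd28 was low in them, with 2 UMIs (20.7 CPM) against 126 CPM in the IL-22-negative library at 12 h, a ratio of 0.164 (0.0198 to 0.593). At 0 h the Cd28 values were 3 UMIs (23.2 CPM) and 120.5 CPM (0.192 (0.0396 to 0.564)). Cd160 was 145 CPM in IL-22-positive and 218 CPM in IL-22-negative T-cell-like cells at 12 h (0.663 (0.362 to 1.11)), and 363 and 189 CPM at 0 h (1.92 (1.40 to 2.57)). Tnfrsf18 was 237 and 227 CPM at 12 h (1.05 (0.662 to 1.57)) and 208 and 229 CPM at 0 h (0.908 (0.597 to 1.33)). Lag3 had 7 UMIs in the IL-22-positive cells at 0 h, a ratio of 4.03 (1.58 to 8.63) to the IL-22-negative ones, and 0 UMIs at 12 h. Icos counted 0 UMIs in IL-22-positive cells at 12 h and 9 at 0 h.

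Over 22 points, the T, NK and ILC1-like sets of at least 50 cells in the 2 IL-22-negative libraries, the gene with the level most like each receptor was found among 8244 genes by Spearman's rho of log2(CPM + 1). Sets of 1 library share its depth and free RNA, so rho is a description. Cd160 was most like Itga1, the integrin gene of ILC1 (0.95), Icos most like Smco4 (0.94), Tnfrsf18 most like Srgn (0.91) and Tigit most like Eea1 (0.91). Tnfrsf9 was most like Dad1 (0.90), Ctla4 like Sdcbp2 (0.87), Cd28 like Ly6a (0.87), Lag3 like Stk39 (0.87), Tnfrsf4 like Gcat (0.83) and Pdcd1 like Nudt22 (0.80). Among the receptors themselves, Icos and Cd28 were most alike (0.92), followed by Icos and Ctla4 (0.82) and Tigit and Lag3 (0.80), while Tnfrsf9 and Cd28 were least alike (-0.41).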

How the data were processed

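Liver CD45-positive leukocytes were measured in 4 libraries of 10x Single Cell 3' v2 chemistry, per the labels' protocols. The deposited matrices hold raw UMI counts, written by Cell Ranger 4.0.0 per the file headers, and the version in the submitters' processing notes is 3.0.1, with mm10 as the build. Filters or scaling by the authors are not given in the sources used here.

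A barcode was kept if it had 200 genes or more and mitochondrial UMIs below 10%. This took 132 barcodes from the 12 h library of IL-22-negative cells, 254 from the 0 h one, and 28 (12 h) and 11 (0 h) from those of IL-22-positive cells. Scrublet calls were then removed (389, 338, 2 and 2 in that order), at each library's automatic threshold. A rule to replace a threshold that called under 0.5% of over 5000 barcodes was set but did not apply to any library. Cells of all libraries were clustered together in scanpy 1.11.5 (Python 3.11.15, numpy 2.4.6, scipy 1.17.1, igraph 0.11.9, scikit-learn 1.9.0) on 2000 variable genes, 30 components, 15 neighbours and Leiden resolution 1. The 10 receptors, their partner lists, antigen receptor segments and Il22 were left out of those genes. The result was 20 clusters, with 14 after a separate clustering of lymphocytes. Clusters were named from marker lists, by the highest mean score. In the clustering of all cells, a cluster stayed unnamed where none of its 10 leading genes was on that list, except for the T list.

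The UMIs of a class were added up within each library and scaled to CPM, with 3 UMIs as the floor for a sum of 0. Ratios were checked on simulated counts with known changes. All 10 receptors are named in each main comparison, and the called members of each partner list. The receptors, the lists and their tests were chosen with earlier results of these data known.

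Decided after the clusters were seen were the low-depth rule (a cluster's median depth under 0.5 of its library's), the cell-by-cell placement of interferon-led and cycling cells with at least 2 markers, and the split of T from NK and ILC1 cells by Cd3d, Cd3e and Cd3g against Ncr1, Tyrobp and Klre1. The naming of clusters by a leading gene (Klra5, Gzmm), the finer clusters and the plasma and plasmacytoid values were also decided then. The marker lists alone had named the Klra5-led cluster gamma-delta T and the Gzmm-led cluster naive-like T.

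Tnfrsf9 overlaps Camta1, Tnfrsf18 overlaps Gm16008 and Cd160 overlaps Pdzk1 on the opposite strand. On the same strand, Icos overlaps Gm37039 and Ctla4 overlaps Rpl18-ps1. Strand does not separate the UMIs of the same-strand pairs, and the effect on their counts was not tested. Alternatives were other cell filters, no doublet removal, Leiden resolution 2, other scalings, thinning, other call limits and sets taken from marker UMIs.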

Additional observations from a re-analysis of the deposited data

Results flagged for a closer look

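Among the 5 main sets, Tnfrsf9 was called in opposite directions in innate-like T cells, with a ratio of 12 h over 0 h of 1.89, and in the regulatory and CD4 T cluster, with a ratio of 0.248. Of the smaller T cell sets, the Gzmm-led CD8 cluster also had a higher call, at 1.72, with an interval that includes 1. With 1 library per group the difference was not tested.

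Tigit was called higher in NK-or-ILC1-like cells, with a ratio of 1.70, and lower in all T-cell-like cells, with a ratio of 0.602, and in the regulatory and CD4 T cluster, with a ratio of 0.416. This difference was not tested either.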

How the results depend on the processing

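No paired analysis was possible because each group has 1 library, and leaving out a replicate is likewise impossible. Few UMIs limit Pdcd1 and Lag3, and few cells limit the T-cell-like class of the IL-22-positive sort. Of 468 values of single receptors under alternatives, over 44 results, 441 stayed within the counting interval, 27 moved and 0 reversed.

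In T-cell-like cells the 4 called receptors became 2 with a fold of at least 2 (Tnfrsf4 and Pdcd1), and 2 without the regulatory and CD4 T cluster (Tnfrsf9 higher, Lag3 lower), an alternative chosen after seeing the data. In the regulatory and CD4 T cluster the 6 became 2 when cells were taken by a Foxp3 UMI (Icos higher, Tigit lower). They became 4 with a fold of at least 2 (without Tnfrsf18 and Lag3), 4 with thinning (without Pdcd1 and Lag3) and 4 with Leiden resolution 2 (Tnfrsf9, Pdcd1 and Tigit lower, Icos higher). In CD8 effector-like cells the 1 became 2 with no doublet removal, with a stricter cell filter (500 genes, mitochondrial UMIs below 5%), with Leiden resolution 2, with the receptors kept in the clustering genes and with a minimum of 10 UMIs (Tnfrsf9 and Lag3 lower in each). It became 0 with thinning, where the Lag3 ratio was 0.708. In innate-like T cells the 1 became 2 with no doublet removal, with that filter, with the receptors kept in the clustering genes and without the top cell (Tnfrsf4 lower, Tnfrsf9 higher in each), 2 with thinning (Ctla4 lower beside Tnfrsf9), 2 with a minimum of 10 UMIs (Lag3 lower beside Tnfrsf9), 3 with Leiden resolution 2 and 0 with a fold of at least 2. In NK-or-ILC1-like cells the 2 became 0 with a fold of at least 2. They became 3 with a minimum of 10 UMIs (Tnfrsf4 lower), and 3, with Icos higher, with no doublet removal, with the stricter cell filter, with Leiden resolution 2, with either other scaling and without the top cell. With the receptors kept in the clustering genes the 2 were Icos higher and Lag3 lower.

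Some counts of the same size held other genes. By marker UMIs, CD8 effector-like cells had Tnfrsf4 called in place of Lag3, and innate-like T cells Ctla4 in place of Tnfrsf9. Leaving out cells whose barcode occurs in both IL-22-negative libraries kept the same calls in all 5 comparisons. Where a call was lost, the cause was not tested, except that a higher fold limit is stricter by construction. Over the alternatives the Tnfrsf4 ratio ran from 0.388 to 0.685 in T-cell-like cells and from 0.466 to 0.767 in the regulatory and CD4 T cluster, where Tigit ran from 0.399 to 0.615. Tigit ran from 1.46 to 1.80 in NK-or-ILC1-like cells.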
